A study of Mus musculus with 8 samples.

Results

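The farnesoid X receptor (FXR, encoded by Nr1h4) is the nuclear receptor for bile acids, and it regulates target genes with its partner RXR. Its best known liver targets control bile acid synthesis and export, but it also regulates genes of bZIP repression, oxidative stress, sterol sensing, lipoprotein handling, autophagy and mRNA decay. GW4064 is a synthetic FXR agonist. The 9 genes described here are known FXR targets outside bile acid transport, namely Mafg, Osgin1, Insig2, Pltp, Fetub, Sdc1, Sqstm1, Zfp36l1 and Fgfr4. They were chosen by name with earlier results of these data known, so shares of all genes set beside them below are a description and not a test. They make up 9 of the 16593 named genes on the array and are read by 16 of its 25697 probes.

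Liver RNA of male mice aged 10 to 12 weeks was measured on Illumina bead arrays, with 2 arrays deposited for each of 4 groups. The groups were mice labelled Fxr-/- given GW4064 by gavage (30 mg/kg, 2 doses daily, 7 days), Fxr-/- mice given vehicle on the same schedule, Fxr+/+ mice given GW4064 and Fxr+/+ mice given vehicle. Each array held RNA pooled from 3 to 4 animals, so p-values measure the spread between pools. The strain, the Fxr allele, slides and scan batches are not given in the sources used here.

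Of the 8 deposited columns, 7 held background-subtracted signals, and the column of replicate 2 of Fxr-/- vehicle did not. That column had whole numbers alone, from 14 to 139, and correlated with no array at a Spearman coefficient above 0.0559. Since it was dropped, every value for Fxr-/- vehicle rests on 1 array, whose spread is taken from the groups with 2. The Nr1h4 probe did not show the loss that the label names. Its signal was 2048 and 1852 in the Fxr-/- GW4064 arrays, 3272 in the Fxr-/- vehicle array, 3328 and 3483 in the Fxr+/+ GW4064 arrays and 3959 and 4411 in the Fxr+/+ vehicle arrays. It is not known here whether this probe lies in the deleted part of the gene, so it does not check the label, and each genotype is given as labelled. All 5 hepatocyte markers (Alb, Ttr, Apoa1, Serpina1a and Hnf4a) were above background, and their summed signal was 52487 to 64294 in Fxr-/- GW4064 arrays, 72367 in the Fxr-/- vehicle array, 81377 to 85880 in Fxr+/+ GW4064 arrays and 77457 to 87162 in Fxr+/+ vehicle arrays. The 4 neutrophil markers summed to 222 to 301 in Fxr-/- GW4064 arrays, 929 in the Fxr-/- vehicle array, 3005 to 3009 in Fxr+/+ GW4064 arrays and 1203 to 3050 in Fxr+/+ vehicle arrays. In bulk liver, fewer cells of a type and less RNA per cell cannot be told apart, and the part of these shifts in the results below was not tested.

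Promoter windows of the 4 genes whose GW4064 arrays all lay above vehicle under both labels (Osgin1, Mafg, Sqstm1 and Insig2) are shown, as the 250 bases before the annotated start. They are RefSeq sequences of build GRCm38.p6, read along the gene's strand from 5′ to 3′, and capitals mark the motif matches named after them. The windows are chr8:119436897-119437146 on the plus strand for Osgin1, chr11:120633548-120633797 on the minus strand for Mafg, chr11:50210821-50211070 on the minus strand for Sqstm1, and chr1:121332590-121332839 on the minus strand for the most upstream of the 3 listed starts of Insig2.
Osgin1: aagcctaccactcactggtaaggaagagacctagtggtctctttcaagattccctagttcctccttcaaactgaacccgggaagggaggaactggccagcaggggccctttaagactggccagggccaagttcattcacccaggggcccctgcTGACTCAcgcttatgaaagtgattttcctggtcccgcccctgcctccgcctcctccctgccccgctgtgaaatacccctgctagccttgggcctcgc
Mafg: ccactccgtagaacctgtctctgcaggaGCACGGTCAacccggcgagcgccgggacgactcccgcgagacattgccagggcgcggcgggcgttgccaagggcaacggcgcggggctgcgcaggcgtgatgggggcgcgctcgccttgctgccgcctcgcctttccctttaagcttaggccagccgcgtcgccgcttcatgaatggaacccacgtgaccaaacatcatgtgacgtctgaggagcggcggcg
Sqstm1: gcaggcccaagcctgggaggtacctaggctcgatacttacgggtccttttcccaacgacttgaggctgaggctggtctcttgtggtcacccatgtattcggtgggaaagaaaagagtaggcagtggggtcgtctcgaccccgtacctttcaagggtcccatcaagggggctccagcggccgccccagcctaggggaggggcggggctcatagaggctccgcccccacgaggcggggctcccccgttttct
Insig2: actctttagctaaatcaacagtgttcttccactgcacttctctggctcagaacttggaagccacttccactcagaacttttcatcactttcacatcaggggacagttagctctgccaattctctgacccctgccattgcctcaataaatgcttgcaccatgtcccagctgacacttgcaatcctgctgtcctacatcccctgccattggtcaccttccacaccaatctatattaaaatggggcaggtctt

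All 9 genes had a window in the RefSeq table, 12 windows in all, and each was searched on both strands for 4 motifs. The element bound by FXR and RXR (an inverted repeat of AGGTCA spaced by 1 base, up to 2 mismatches allowed) was in none of the 12 windows and in 0.959% of the 32851 windows of all genes. The half-site AGGTCA was also in none of the 12, against 14.0% of all windows. The Osgin1 window held TGACTCA, the core of MAF recognition elements of the TRE type, 97 to 91 bases before the start, a motif in 4.46% of all windows. The Mafg window held the antioxidant response element core TGACNNNGC on the reverse strand, 222 to 214 bases before the start, as did 1 of the 2 Fetub windows, 110 to 102 bases before the start, against 10.2% of all windows. The Sqstm1 and Insig2 windows held none of the 4 motifs. TGACTCA was added to the search after the Osgin1 window had been read. A match is a description of letters, and a window without one says nothing of binding elsewhere.

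The first comparison asked how GW4064 moved these genes under each genotype label. Osgin1, Mafg, Insig2 and Sqstm1 had higher signals under GW4064 than under vehicle in every array of both labels, Pltp and Fetub were lower under GW4064 in Fxr+/+ mice, and Sdc1 and Zfp36l1 moved little. Every GW4064 array lay above every vehicle array under both labels for 4 of the 8 measurable genes, beside 7.07% of the 9766 genes tested, and below under both labels for 0 of 8, beside 7.39%. Within Fxr-/- alone 5 of 8 lay above (35.1% of all) and 0 below (33.0%), and within Fxr+/+ alone 5 lay above (15.8%) and 2 below (17.7%). None of the 8 passed a limma adjusted p of 0.05 in either label. At that threshold 0.0717% of all genes tested were called in mice labelled Fxr-/-, 0.0205% in Fxr+/+ mice, 0.0922% for the average of both labels and 0.00% for the difference between them, so few genes could be called at all. For the difference between the labels 604 genes (6.18%) had an unadjusted p under 0.05, a cut that 5% would pass if no gene differed. The median log2 change of the 8 genes was 0.45 in Fxr-/- mice and 0.14 in Fxr+/+ mice, beside 0.01 and -0.01 over all genes tested. The 9th gene, Fgfr4, did not pass the filter on dim probes.

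**Figure D1:**
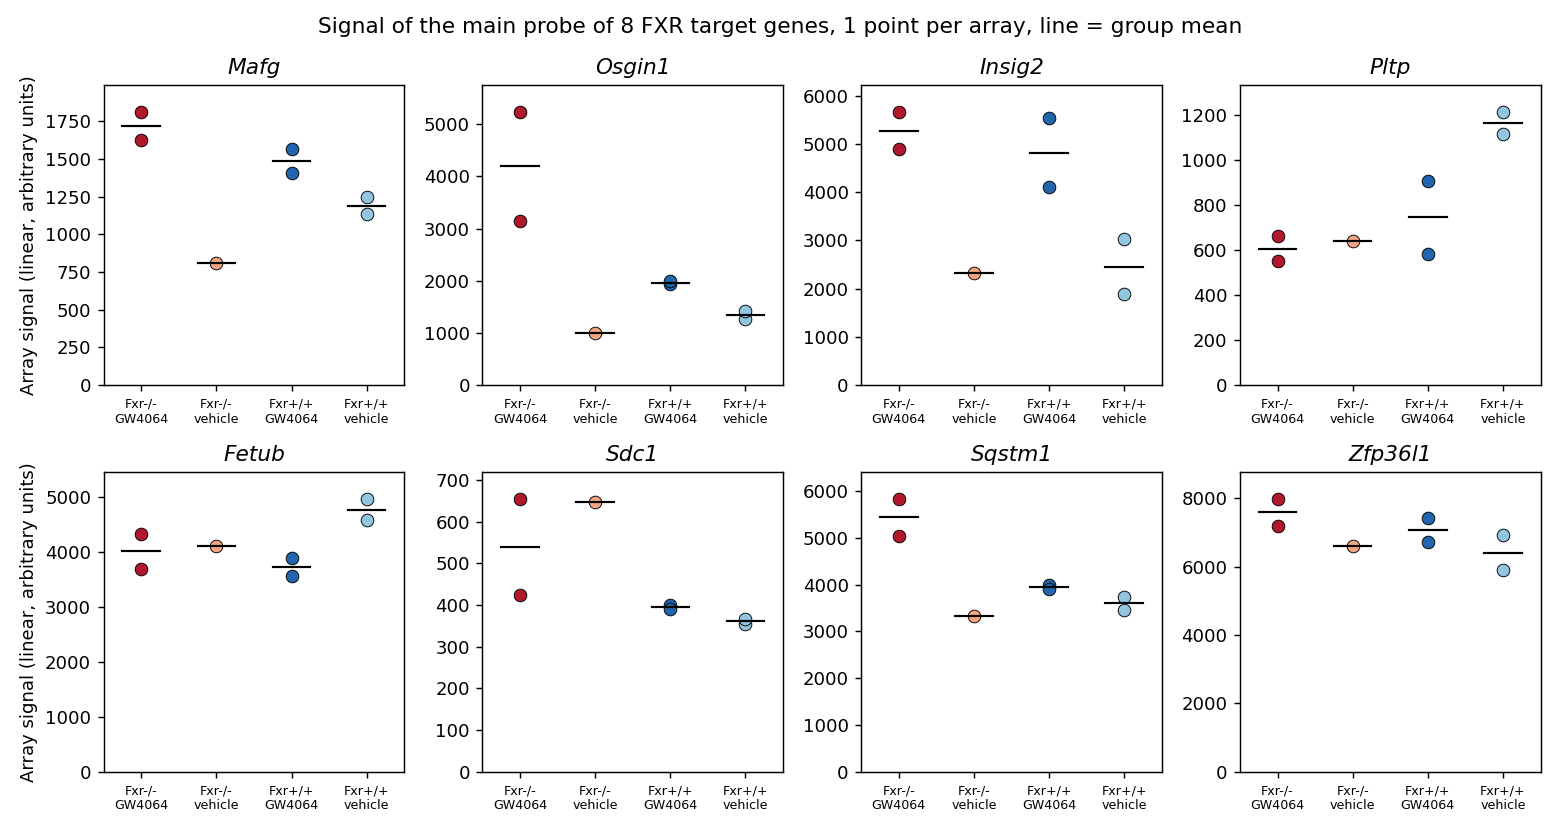
Signal of the brightest probe of 8 genes (linear vertical axis from 0, arbitrary units), with 1 point per array and a line at the group mean, for 2 arrays a group and 1 in Fxr-/- vehicle. Osgin1 reached 3151 and 5232 in Fxr-/- GW4064 arrays, against 1007 in the Fxr-/- vehicle array. Vertical scales differ between genes.

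**Figure D2:**
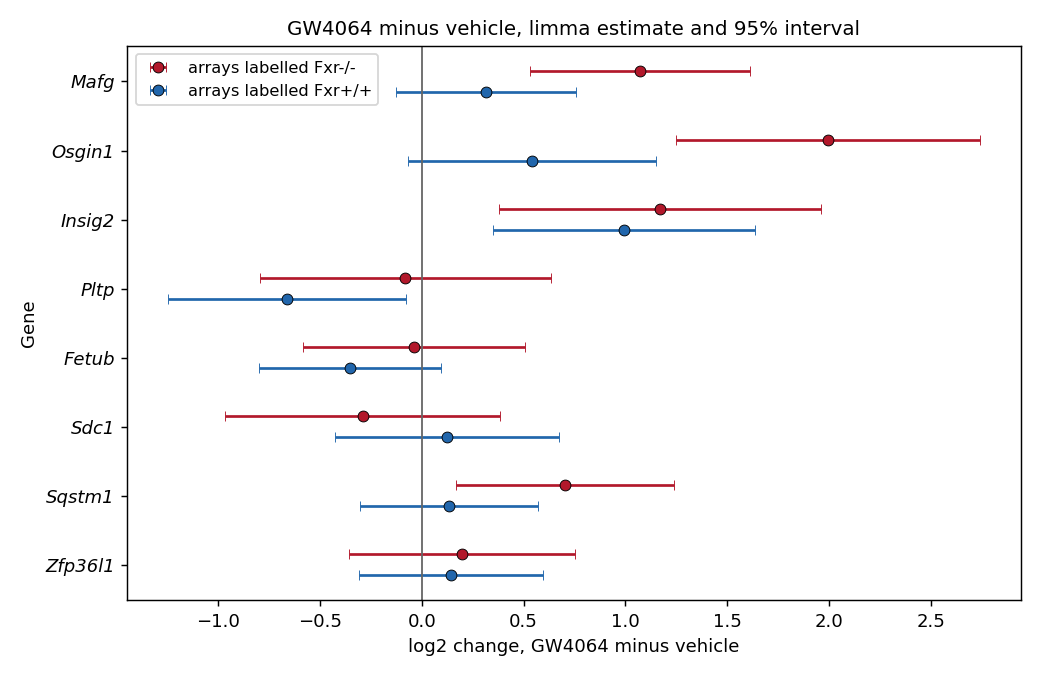
The log2 change from GW4064 (horizontal axis, GW4064 minus vehicle) of 8 genes, for arrays labelled Fxr-/- (red, upper point) and Fxr+/+ (blue, lower point), with 95% intervals from the limma fit. Osgin1 in Fxr-/- had the largest value, 1.99, and Pltp in Fxr+/+ the lowest, -0.66.

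Osgin1, an oxidative stress-induced growth inhibitor and also a target of NRF2, had the largest change of the 8 genes in Fxr-/- and on average, by each gene's brightest probe, while in Fxr+/+ Insig2 had the largest. Its signal was 3151 and 5232 in the Fxr-/- GW4064 arrays, against 1007 in the Fxr-/- vehicle array. In Fxr+/+ mice it was 1930 and 1994 under GW4064, against 1267 and 1421 under vehicle. The groups did not overlap within either label, and the Fxr-/- GW4064 pair lay above all other arrays and far apart from each other. The 5232 came from replicate 2, which also had the lowest hepatocyte (52487) and neutrophil (222) marker sums of the 7 arrays. A link between these values was not tested. The mean Osgin1 signal ratio of GW4064 to vehicle was 4.16 in Fxr-/- and 1.46 in Fxr+/+. On the log2 scale the change was 1.99 in Fxr-/- (SE 0.32, limma adjusted p = 0.138), which ranked 11 of 9766 among all genes tested by size of increase. In Fxr+/+ the change was 0.54 (SE 0.26, limma adjusted p = 1.00), at rank 291. The difference between the labels was 1.45 (95% interval 0.49 to 2.42), with an unadjusted p of 0.00871 and a limma adjusted p of 0.599. Averaged over both labels the change was 1.27 (SE 0.21, limma adjusted p = 0.111). With a variance prior that follows the mean signal, the Osgin1 change in Fxr-/- passed (limma adjusted p = 0.0356), and so did its average (0.022). Of the 17 alternative settings tried, 16 left the change in Fxr-/- short of the threshold, and 15 of 17 left the average short. Counts over all genes moved with the setting too and are given at the end.

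Mafg encodes a small MAF protein that lacks an activation domain, represses as a homodimer and, in mouse liver, represses bile acid genes such as Cyp8b1. Its signal was 1622 and 1809 in the Fxr-/- GW4064 arrays, against 806 in the Fxr-/- vehicle array. In Fxr+/+ it was 1566 and 1403 under GW4064, against 1132 and 1246 under vehicle. The order of the group means was Fxr-/- GW4064, Fxr+/+ GW4064, Fxr+/+ vehicle and Fxr-/- vehicle, with no overlap between neighbours. The ratio of GW4064 to vehicle was 2.13 in Fxr-/- and 1.25 in Fxr+/+. On the log2 scale the Mafg value was 1.07 in Fxr-/- (SE 0.23, limma adjusted p = 0.187) and 0.32 in Fxr+/+ (SE 0.19, limma adjusted p = 1.00). The labels differed by 0.76 in this change (95% interval 0.06 to 1.45, limma adjusted p = 0.754), so the gap did not pass.

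The partners of Mafg gave no call either. Of the 9 listed small MAF, CNC-bZIP and KEAP1 genes, 6 were tested and 0 passed in any of the 6 comparisons. Under GW4064 the median log2 change was -0.15 in Fxr-/-, with 1 of 6 above 0, and -0.01 in Fxr+/+, with 2 of 6 above 0. The 1 above 0 in Fxr-/- was Nfe2, whose signals of 8.7 to 33.6 were within the background on all 7 arrays, and Maff was above the background on 1 array. Nfe2l2, which encodes the activator NRF2, had signals of 203 and 132 in Fxr-/- GW4064 arrays, against 215 in the matching vehicle array. Bach1, a repressor that pairs with small MAF proteins, had a log2 change of -0.11 in Fxr-/- and -0.41 in Fxr+/+, and neither passed.

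Genes with antioxidant response elements, to which NRF2 and small MAF dimers bind, were read beside Osgin1 and Mafg. Of 18 listed, 14 were tested, with a median change of 0.09 in Fxr-/- (8 of 14 above 0) and 0.12 in Fxr+/+ (13 of 14 above 0). Gstm3, a glutathione S-transferase whose probe may also read its paralogs, was the 1 gene that passed. Its signals were 195 and 171 in Fxr-/- GW4064 arrays, against 0.9 in the matching vehicle array, within the range of the background (limma adjusted p = 0.0139). That call was lost without either Fxr-/- GW4064 array (highest limma adjusted p = 0.178). In Fxr+/+ Gstm3 had 169 and 120 under GW4064, against 27.8 and 18.1 under vehicle, also within the background (limma adjusted p = 0.105). Averaged over both labels it passed (limma adjusted p = 0.00655) and stayed past the threshold whichever of 6 arrays was left out. Nqo1, a quinone reductase, had log2 changes of 0.56 in Fxr-/- and 1.05 in Fxr+/+, and Gclm, a subunit of glutathione synthesis, 0.37 and 0.34 in the same order. Gsta1 had log2 changes of 1.1 and 1.26 in that order, and Gstm1 0.94 and 0.39. Their GW4064 arrays all lay above vehicle under both labels. None of these genes passed in either label.

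Sqstm1 encodes p62, a receptor that brings ubiquitinated cargo to autophagosomes and binds KEAP1. The Sqstm1 signal was 5049 and 5830 in the Fxr-/- GW4064 arrays, against 3328 in the Fxr-/- vehicle array. It was 3997 and 3906 in Fxr+/+ mice under GW4064, against 3744 and 3455 under vehicle. Both GW4064 pairs lay above their vehicle arrays, by a ratio of 1.63 in Fxr-/- and 1.1 in Fxr+/+. The log2 change was 0.70 in Fxr-/- (SE 0.23, limma adjusted p = 0.364) and 0.14 in Fxr+/+ (SE 0.19, limma adjusted p = 1.00), and the difference between the labels was 0.57 (95% interval -0.12 to 1.26).

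Other autophagy genes gave no call under GW4064. Of 18 listed, 16 were tested, with a median log2 change of -0.07 in Fxr-/- (7 of 16 above 0) and -0.10 in Fxr+/+ (5 of 16 above 0). Nbr1, a cargo receptor related to p62, had values of 0.03 in Fxr-/- and 0.04 in Fxr+/+. Map1lc3b, the LC3B protein of the autophagosome membrane to which p62 binds, had -0.30 and -0.20 in the same order, and neither passed.

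Insig2 encodes an endoplasmic reticulum protein that holds SCAP and its SREBP cargo in place and promotes the breakdown of HMG-CoA reductase. Its brightest probe gave signals of 5658 and 4897 in the Fxr-/- GW4064 arrays, against 2331 in the Fxr-/- vehicle array. In Fxr+/+ mice it gave 5530 and 4113 under GW4064, against 3027 and 1885 under vehicle. All 4 GW4064 arrays lay above all 3 vehicle arrays, and the labels overlapped within each treatment. The ratio of GW4064 to vehicle was 2.26 in Fxr-/- and 1.96 in Fxr+/+. The log2 change was 1.17 in Fxr-/- (SE 0.34, limma adjusted p = 0.29) and 0.99 in Fxr+/+ (SE 0.28, limma adjusted p = 0.771), and Insig2 ranked 55 of 9766 by size of increase in Fxr+/+. The change differed between the labels by 0.18 (95% interval -0.84 to 1.2), an interval too wide to call them alike, and its sign turned to -0.16 without Fxr+/+ vehicle replicate 1. Averaged over both labels the change was 1.08 (SE 0.22, limma adjusted p = 0.183). It passed with the prior that follows the mean signal (limma adjusted p = 0.0463), while 16 of the 17 alternative settings left it short of the threshold.

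All 3 probes of Insig2 had higher signals under GW4064, but not by the same factor. The second probe gave 4875 and 4548 in Fxr-/- GW4064 arrays, against 2320 in the matching vehicle array, a ratio of 2.03. In Fxr+/+ it gave 4984 and 4048 under GW4064, against 2533 and 2426 under vehicle, a ratio of 1.82. The dimmest probe gave 1324 and 636 in Fxr-/- GW4064 arrays, against 234 in the matching vehicle array, and 1036 and 720 against 291 and 170 in Fxr+/+. Its ratios were 4.19 in Fxr-/- and 3.81 in Fxr+/+, above those of the other probes under both labels. Its log2 change averaged 1.89 (SE 0.32, limma adjusted p = 0.167 over all probes), against 0.93 (SE 0.16) for the second probe, and the gap between probes was not tested. The annotation gives transcript NM_133748 for the brightest probe and NM_178082 for the other 2. The platform annotation used here gives no position of a probe within a transcript.

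**Figure D3:**
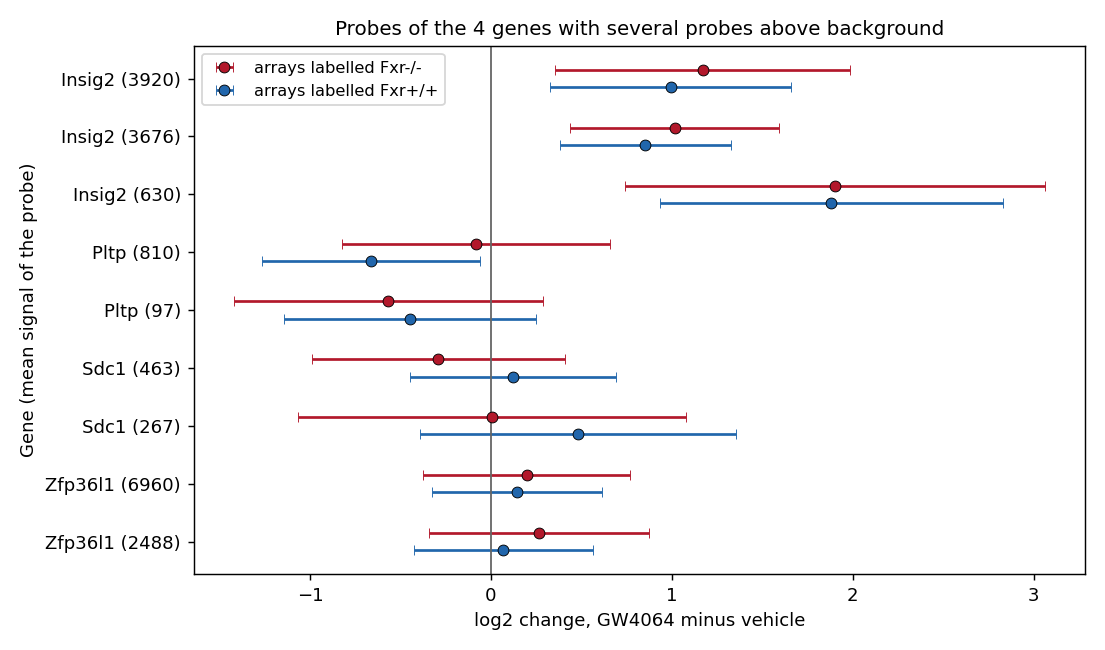
The log2 change from GW4064 (horizontal axis) for each probe above background on all 7 arrays of Insig2, Pltp, Sdc1 and Zfp36l1, with 95% limma intervals, for arrays labelled Fxr-/- (red, upper point) and Fxr+/+ (blue, lower point). The number after each gene is the probe's mean signal. The dimmest Insig2 probe averaged 1.89 and the other Insig2 probes 1.08 and 0.93.

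Partners and outputs of INSIG2 gave no call under GW4064. Of 13 genes listed for SCAP, the SREBPs and their targets, 9 were tested, and 9 of 9 lay below 0 in Fxr+/+ (median -0.30), with 6 of 9 below 0 in Fxr-/- (median -0.13). The medians over all genes tested were -0.01 and 0.01 in the same order. A link between these values and Insig2 was not tested. The values of Srebf1 and Srebf2, which encode the SREBPs, were both -0.02 in Fxr+/+, where their groups overlapped. Idi1, an enzyme of isoprenoid synthesis, had signals of 67.0 and 100.2 in Fxr+/+ GW4064 arrays, against 161.5 and 212 under vehicle, with a log2 change of -1.03 (limma adjusted p = 0.624). Insig1, the paralog of Insig2 and itself an SREBP target, had changes of -0.27 in Fxr-/- and -0.35 in Fxr+/+, opposite in sign to Insig2.

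Zfp36l1 encodes an RNA-binding protein that speeds the decay of mRNAs with AU-rich elements, and in mouse liver it lowers Cyp7a1 mRNA. Its signal was 7976 and 7192 in the Fxr-/- GW4064 arrays, against 6604 in the Fxr-/- vehicle array. In Fxr+/+ it was 7429 and 6703 under GW4064, against 6914 and 5899 under vehicle, and these groups overlapped. Zfp36l1 had log2 changes of 0.20 in Fxr-/- (95% interval -0.36 to 0.75) and 0.14 in Fxr+/+ (-0.31 to 0.60), and the second probe above background gave 0.27 and 0.07. Among 10 listed proteins of AU-rich decay, 6 were tested and 0 passed under GW4064. Zfp36, which encodes the related protein tristetraprolin, had signals of 694 and 910 in Fxr-/- GW4064 arrays, against 398 in the matching vehicle array (log2 change 0.97, limma adjusted p = 0.29), and 1911 and 1457 against 1549 and 1680 in Fxr+/+.

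Cyp7a1 and Cyp8b1, the bile acid synthesis enzymes set beside Zfp36l1 and Mafg in the background above, were read in the same arrays. Cyp8b1 fell in Fxr-/- to 92.4 and 30.6 under GW4064, against 3164 in the matching vehicle array (log2 change -5.48, SE 0.45, limma adjusted p = 0.0139). That call was kept in each of the 6 fits that left out 1 array, which was never the Fxr-/- vehicle array. The 30.6 is within the background, so the size of this change is uncertain. Its signals in Fxr+/+ were 6484 and 6307 under GW4064, against 17829 and 20338 under vehicle (log2 change -1.57, limma adjusted p = 0.624). Cyp7a1 had signals of 805 and 613 in Fxr-/- GW4064 arrays, against 3846 in the matching vehicle array (log2 change -2.43, limma adjusted p = 0.0603). Cyp7a1 fell in Fxr+/+ to 984 and 1002 under GW4064, against 7144 and 4934 under vehicle (log2 change -2.56, limma adjusted p = 0.0451). That Cyp7a1 call was kept in 1 of 7 fits that left out 1 array. Averaged over both labels the Cyp7a1 change was -2.49 (limma adjusted p = 0.00715), kept in 5 of 6 such fits. Of the 13 bile acid FXR targets tested from the fixed list, Slc51b, a subunit of the basolateral exporter, was the other 1 to pass, with 881 and 957 in Fxr-/- GW4064 arrays against 30.8 in the matching vehicle array (limma adjusted p = 0.0459). That vehicle signal is within the background, and the call was kept in 2 of 6 fits that left out 1 array. In Fxr+/+ Slc51b had 719 and 294.7 under GW4064, against 50.8 and 53.7 under vehicle (log2 change 2.81, limma adjusted p = 0.134). Averaged over both labels Cyp8b1 and Slc51b passed too (limma adjusted p = 0.00715 for each), kept in 5 of 6 and 4 of 6 fits that left out 1 array. Abcb11, the canalicular bile salt exporter, passed in neither label. Its log2 change was 1.61 in Fxr-/- (limma adjusted p = 0.138) and 0.57 in Fxr+/+ (limma adjusted p = 0.968).

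Pltp encodes the phospholipid transfer protein that moves phospholipid between lipoproteins and remodels HDL. Its brighter probe gave 550 and 662 in the Fxr-/- GW4064 arrays, against 640 in the Fxr-/- vehicle array, with the vehicle value between the others. In Fxr+/+ it gave 583 and 908 under GW4064, against 1115 and 1212 under vehicle, without overlap and with a ratio of 0.641. The Fxr+/+ vehicle arrays were above all 5 other arrays. The log2 change was -0.08 in Fxr-/- (95% interval -0.80 to 0.63) and -0.66 in Fxr+/+ (SE 0.25, unadjusted p = 0.0308, limma adjusted p = 0.968). The difference between the labels was 0.58 (95% interval -0.34 to 1.5).

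The dimmer Pltp probe did not order the groups in the same way. It gave 65.0 and 60.1 in Fxr-/- GW4064 arrays, against 100.3 in the matching vehicle array, and 68.9 and 118.1 against 162.4 and 102.7 in Fxr+/+, where the groups overlapped. Its log2 change was -0.57 in Fxr-/- and -0.45 in Fxr+/+, and neither passed. None of the 8 tested genes of HDL remodelling, of 12 listed, passed in either label. Scarb1, the HDL receptor SR-BI, had signals of 287 and 303 in Fxr-/- GW4064 arrays, against 109 in the matching vehicle array, and 144 and 134 against 90.2 and 79.1 in Fxr+/+. Its changes of 1.31 (limma adjusted p = 0.138) and 0.62 (0.787) were above 0 under both labels.

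Fetub encodes fetuin-B, a liver-secreted protease inhibitor of the cystatin superfamily needed for female fertility in mice. Its signal was 4328 and 3694 in the Fxr-/- GW4064 arrays, against 4107 in the Fxr-/- vehicle array. In Fxr+/+ it was 3563 and 3894 under GW4064, against 4573 and 4965 under vehicle, without overlap and with a ratio of 0.782. The log2 change was -0.04 in Fxr-/- (95% interval -0.59 to 0.51) and -0.35 in Fxr+/+ (95% interval -0.80 to 0.09, limma adjusted p = 1.00). Fetub and Pltp were the 2 of 8 genes whose Fxr+/+ GW4064 arrays both lay below vehicle, as did 17.7% of all genes tested. Ahsg, which encodes fetuin-A, had values of -0.26 in Fxr-/- and -0.08 in Fxr+/+, and none of the 6 tested genes of the fetuin list, of 7 listed, passed.

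Sdc1 encodes syndecan-1, a heparan sulfate proteoglycan by which hepatocytes take up triglyceride-rich lipoproteins. The Sdc1 signal was 655 and 424 in the Fxr-/- GW4064 arrays, against 649 in the Fxr-/- vehicle array, so the vehicle value lay between the pair. In Fxr+/+ it was 400 and 390 under GW4064, against 355 and 367 under vehicle, a small shift without overlap. The log2 change was -0.29 in Fxr-/- (95% interval -0.97 to 0.38) and 0.12 in Fxr+/+ (95% interval -0.43 to 0.67). The second probe gave 431 and 230 in Fxr-/- GW4064 arrays, against 315 in the matching vehicle array, and 338 and 193 against 212 and 150 in Fxr+/+, so its groups overlapped under both labels. Both probes were lower in Fxr-/- GW4064 replicate 2 than in replicate 1, and without replicate 2 the Fxr-/- value of the brighter probe was 0.01. The remaining probe stayed at 31.3 or less on all 7 arrays. None of the 11 tested syndecan and heparan sulfate genes, of 14 listed, passed under GW4064.

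Syndecan-1 is also made by bile duct and plasma cells, so their markers were read beside it. The 3 bile duct markers on the array summed to 138 to 183 in Fxr-/- GW4064 arrays, 128 in the Fxr-/- vehicle array, 75.4 to 94.5 in Fxr+/+ GW4064 arrays and 110 to 125 in Fxr+/+ vehicle arrays, and Krt19 was within the background on all 7. The 4 B and plasma cell markers summed to 79.1 to 83.4, 99.6, 82.6 to 122 and 101 to 118 in the same order of groups, with Cd79a and Jchain within the background. The part of these cells in the Sdc1 values was not tested.

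Fgfr4 encodes the hepatocyte receptor that, with beta-Klotho, binds the gut hormone FGF15 and lowers bile acid synthesis. Its single probe read 14.5 and 14.6 in Fxr-/- GW4064 arrays, -3.6 in the Fxr-/- vehicle array, 15 and 13.9 in Fxr+/+ GW4064 arrays and 15.2 and 15 in Fxr+/+ vehicle arrays. All 7 values were under 39.5, the size of the most negative signal in the table, so they lie within the range of the background and give neither a level nor a fold. Klb, which encodes beta-Klotho, was measurable, with 207 and 192 in Fxr-/- GW4064 arrays, against 287 in the matching vehicle array, and 191 and 180 against 187 and 229 in Fxr+/+. Its log2 changes were -0.49 in Fxr-/- and -0.15 in Fxr+/+, and none of the 8 tested genes of the FGF list, of 13 listed, passed under GW4064.

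The second comparison asked how the genes differed between the genotype labels under the same treatment. Under GW4064 Osgin1 was higher in Fxr-/- than in Fxr+/+ mice and was the 1 gene of the 8 to pass. Its ratio was 2.14, with a log2 difference of 1.04 (SE 0.26, 95% interval 0.43 to 1.65, limma adjusted p = 0.0362), and 14.6% of all genes tested passed in this comparison, with 5.47% higher. The call was lost without Fxr+/+ GW4064 replicate 1 (limma adjusted p = 0.163), without Fxr+/+ GW4064 replicate 2 (0.155) and without Fxr-/- GW4064 replicate 2 (0.142), where the difference was 0.68. These differences use the same GW4064 arrays as the treatment effects and are not a separate measurement of them.

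**Figure D4:**
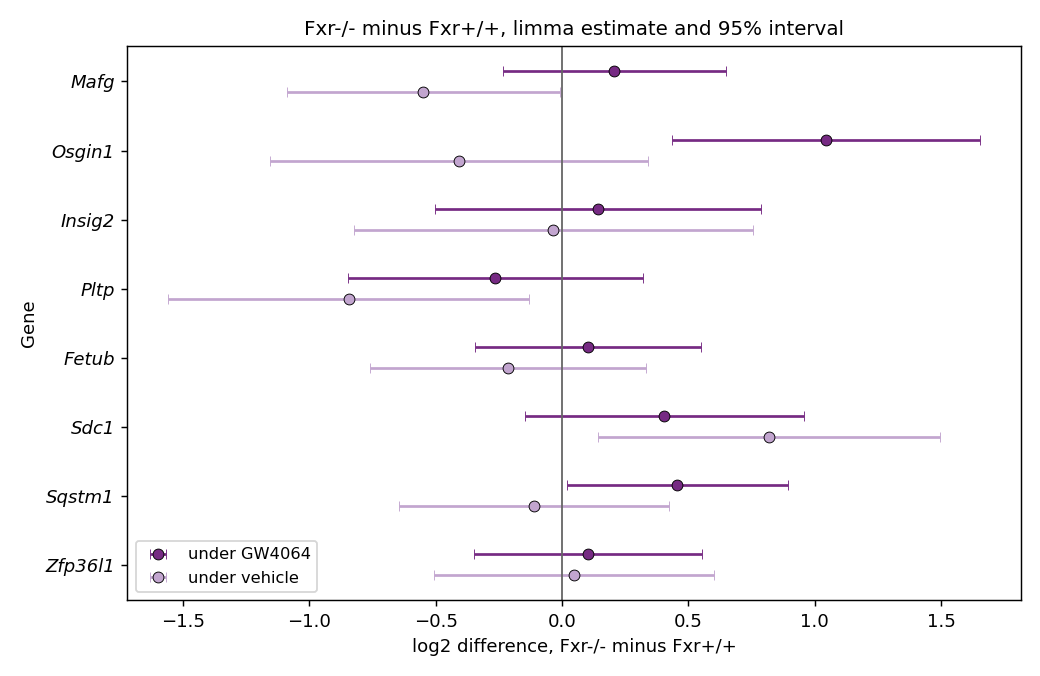
The log2 difference between the labels (horizontal axis, Fxr-/- minus Fxr+/+) of 8 genes under GW4064 (dark, upper point) and under vehicle (pale, lower point), with 95% limma intervals. Osgin1 under GW4064 had a difference of 1.04, and the Fxr-/- vehicle group held 1 array.

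The other 7 genes did not pass under GW4064. Sqstm1 came next, at 0.46 (SE 0.19, unadjusted p = 0.0427, limma adjusted p = 0.155). It passed with an offset of 100 before the logarithm (limma adjusted p = 0.047), while 17 of the 18 alternative settings left it short of the threshold. Both Fxr-/- arrays lay above both Fxr+/+ arrays for Osgin1, Sqstm1, Mafg and Sdc1, as for 33.9% of all genes tested, and both lay below for 0 of 8, beside 25.3%. Values of the remaining genes were 0.21 for Mafg, 0.14 for Insig2, -0.26 for Pltp, 0.10 for Fetub, 0.40 for Sdc1 and 0.10 for Zfp36l1.

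Under vehicle none of the 8 genes passed, while 6.85% of all genes tested did. The Fxr-/- vehicle array was below both Fxr+/+ vehicle arrays for Mafg, Osgin1, Pltp, Fetub and Sqstm1, as for 37.8% of all genes tested, and above both for Sdc1 alone, as for 41.0%. Mafg had a log2 difference of -0.55 (SE 0.23, limma adjusted p = 0.197) and Pltp one of -0.85 (SE 0.31, limma adjusted p = 0.144). Sdc1 had a log2 difference of 0.82 (SE 0.29, limma adjusted p = 0.135), with a ratio of 1.80 for the brighter probe and 1.74 for the second. Mafg, Osgin1, Insig2, Fetub and Sqstm1 had a value below 0 under vehicle and above 0 under GW4064, but the change in the difference passed for none of them. Each vehicle value rests on the single Fxr-/- vehicle array. Leaving out other arrays turned the sign for Insig2 under both treatments and for Fetub under GW4064. The share of all genes with such a switch was not counted.

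Genes of the fixed lists also differed between the labels, and the background is that 14.6% of all genes passed under GW4064. The bile acid list held 6 calls of 13 tested under GW4064. Abcb11, the canalicular bile salt exporter, was higher in Fxr-/- (1.23, limma adjusted p = 0.0107), as was Fgf15, described with the FGF genes. Cyp8b1 (limma adjusted p = 0.000129) and the bile acid conjugation genes Baat (-3.52, limma adjusted p = 0.000478) and Slc27a5 (-3.50, limma adjusted p = 0.00163) were lower. Slc10a1, the basolateral uptake transporter, was lower as well (limma adjusted p = 0.0299), with 1 of its 2 Fxr-/- GW4064 signals within the background. Under vehicle 4 of 13 were lower in Fxr-/-, namely Baat (-3.60), Slc27a5 (-3.13), Cyp8b1 (-2.58) and Cyp7b1 (-1.70), beside 6.85% of all genes called in either direction. Abcb11 had a difference of 0.19 under vehicle, which did not pass (limma adjusted p = 0.722).

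In the antioxidant list 4 of 14 tested were lower in Fxr-/- under GW4064 and 0 higher, while Osgin1 was higher. Of all genes tested 14.6% passed in this comparison, with 5.47% higher. Values of 3 of the 14 lay above 0 under GW4064, and 12 of 14 lay below 0 under vehicle. The 4 that passed were Gsta1 (log2 difference -2.59, limma adjusted p = 0.00103), Nqo1 (-1.34), Srxn1 (-0.94) and Blvrb (-0.71). Gsta1 was lower under vehicle as well (-2.43, limma adjusted p = 0.00612). In autophagy, Map1lc3a was higher and Atg5 and Gabarapl1 lower, 3 of 16 in all, with limma adjusted p of 0.0497, 0.0189 and 0.0257. Of the SREBP list, 3 of 9 were lower under GW4064, namely Hmgcs1 (-1.22), Insig1 (-1.02) and Idi1, whose signals of 37.3 and 38.3 in Fxr-/- GW4064 arrays were within the background, against 67.0 and 100.2 in Fxr+/+ GW4064 arrays. Hmgcs1 (-1.25) and Idi1 (-1.71) were lower under vehicle too. Zfp36 was the 1 of 6 genes of AU-rich decay to pass, lower in Fxr-/- under vehicle (-1.98, limma adjusted p = 0.0074) and under GW4064 (-1.06, limma adjusted p = 0.0214).

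In the lists of secreted and surface proteins the HDL and FGF calls under GW4064 ran in both directions, and the fetuin and syndecan calls were lower in Fxr-/-. The shares of all genes tested in this comparison were again 14.6% called, with 5.47% higher. Of 8 HDL genes, Abcg1, a sterol exporter (1.69, limma adjusted p = 0.00606, with 1 Fxr+/+ GW4064 signal within the background), and Scarb1 (1.01) were higher in Fxr-/- under GW4064, and the apolipoprotein genes Apom (-2.78, limma adjusted p = 0.000696) and Apoa2 (-1.35) were lower. Hrg, a histidine-rich glycoprotein with cystatin domains, was the 1 of 6 fetuin relatives to pass (-2.01, limma adjusted p = 0.00147). Gpc1, a glypican, was lower (-1.64, limma adjusted p = 0.00357), and so was Sdc3, the syndecan of nerve tissue (-1.11), which made 2 of 11. Of 8 FGF genes 1 was higher and 3 were lower under GW4064. Fgfr2 had signals of 206 and 211 in Fxr-/- GW4064 arrays, against 71.3 and 34.0 in Fxr+/+ GW4064 arrays, the second of them within the background (limma adjusted p = 0.00623). Fgfr3 had 3.9 and 1.2, within the background, against 129.7 and 80.3 in Fxr+/+ (limma adjusted p = 0.001), and Fgfrl1 and Dusp6 were the other two. Fgf15, the ligand of FGFR4 and mainly an intestinal hormone, had 56.3 and 68.7 in Fxr-/- GW4064 arrays, against 16 and 32.9 in Fxr+/+ GW4064 arrays, which were within the background (limma adjusted p = 0.0354). Under vehicle the calls of these 4 lists were all lower in Fxr-/-, namely Apom (-2.90), Hrg (-3.33), Gpc1 (-2.08), Fgfrl1 (-1.97) and Fgfr3, the last at 2.9, within the background. Of all genes tested 6.85% passed under vehicle in either direction, and the share called lower was not counted.

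Of the calls in that account, those under GW4064 of Abcb11, Slc10a1, Nqo1, Srxn1, Blvrb, Fgf15, Map1lc3a, Atg5, Gabarapl1, Hmgcs1, Idi1, Insig1, Zfp36, Scarb1, Apoa2, Sdc3, Fgfrl1 and Dusp6 were lost in at least 1 fit that left out an array, as were those under vehicle of Cyp8b1, Cyp7b1, Hmgcs1 and Idi1. The calls of Baat, Slc27a5, Gsta1, Hrg, Gpc1, Apom and Fgfr3 under both treatments, Zfp36 and Fgfrl1 under vehicle, and Cyp8b1, Abcg1 and Fgfr2 under GW4064 were kept in each such fit. For the calls under vehicle no fit could leave out the single Fxr-/- vehicle array, so their dependence on it was not tested.

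The genes whose log2 signals most resembled each member over the 7 arrays were named by Pearson correlation, with no test, since the arrays share groups and 9766 genes were ranked. For Osgin1 they were Hes1 (r = 0.989), Slc19a1 (0.985) and Gstm1 (0.978). For Sqstm1 they were Slc19a1 (0.98), Vars (0.975) and Osgin1 itself (0.974), so Osgin1 was the 1 gene of the 9 found among the 3 nearest of another. Mafg was nearest to Asap3 (0.988), Slc35a2 (0.98) and Ildr1 (0.97), and Insig2 to D17H6S56E-5 (0.99), Thumpd1 (0.988) and Prkab1 (0.972). The nearest were Ccl19 (0.985), Proc and Retreg1 for Pltp, Adcy6 (0.964), Ank1 and Brwd3 for Fetub, Ppy (0.99), Il1f10 and Ciao2b for Sdc1, and Bcs1l (0.966), Mdh1 and Aqp5 for Zfp36l1.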

How the data were processed

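Liver RNA was labelled with biotin for Illumina bead arrays, per the labels' protocols. In 7 columns the authors deposited a linear intensity per probe. These intensities were already background-subtracted (31.5% to 31.6% of values below 0, minimum -39.5) and quantile normalized (sorted columns differed by at most 0.5), as the values show. The sources used here name no software, and no detection p-values were used. Fxr-/- vehicle replicate 2 was left out.

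Members and gene lists were chosen with earlier results of these data known. Probes were named by the platform annotation (23978 with 1 symbol, 0 with several, 1719 with none), and Entrez lookup in RefSeq (GRCm38.p6) changed 0 symbols. Signals became log2(max(signal, 0) + 16), so folds of dim genes are understated. A probe was kept above the array median (percentile 50) on at least 2 arrays, and each gene was tested through its kept probe of highest mean signal, which left 9766 genes. A signal under 39.5 counts as within the background.

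limma 3.58.1 in R 4.3.3 fitted 4 group means over 7 arrays (3 residual and 4.55 prior degrees of freedom). P-values are two-sided, Benjamini-Hochberg adjusted across all 9766 genes with a threshold of 0.05, and the fit was tested on simulated data. The number of arrays limits the precision. Named were the 9 genes, members of 10 fixed lists that passed or show a list's range, and the 3 nearest genes by correlation. Alternatives covered the offset, normalization, filter, probes, variance prior, arrays fitted and the replicate number as a block. Figures were drawn with matplotlib 3.10.9.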

Additional observations from a re-analysis of the deposited data

How the results depend on the processing

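Of 824 values of single genes recomputed under the alternatives, 797 kept their sign and their side of the threshold, 5 newly passed, 5 no longer passed and 17 changed sign, none of the last past the threshold. The count of the 8 genes that passed stayed the same in 90 of 103 recomputed counts. For Fxr-/- against Fxr+/+ under GW4064, where 1 passed, it was 0 with an offset of 1, 0 with no filter, 2 with an offset of 100, and 0 to 1 when 1 array was left out. For GW4064 averaged over both labels, where 0 passed, it was 1 with an offset of 100 and 2 with a variance prior that follows the mean (Osgin1 and Insig2), and for GW4064 in Fxr-/- it was 1 with that prior. Without a filter Fgfr4, whose signals are all within the background, made it 1 for GW4064 in Fxr-/-, for the difference of the GW4064 effects, for the average and for the labels under vehicle.

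With the mean of the kept probes the average GW4064 change of Sdc1 was 0.042 and the vehicle difference of Zfp36l1 was -0.086. Leaving out single arrays turned the sign of values near 0, which then ranged as follows. The difference of the GW4064 effects lay between -0.16 and 0.52 for Insig2 and between -0.061 and 0.17 for Zfp36l1. The difference between labels under vehicle lay between -0.37 and 0.30 for Insig2 and between -0.066 and 0.16 for Zfp36l1. Under GW4064 it lay between -0.071 and 0.35 for Insig2, -0.58 and 0.048 for Pltp and -0.012 and 0.22 for Fetub. The GW4064 change in Fxr-/- lay between -0.21 and 0.048 for Pltp, -0.15 and 0.075 for Fetub and -0.59 and 0.013 for Sdc1, and the average for Sdc1 between -0.24 and 0.069. The cause was not tested.

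Same-numbered arrays deviated together (r between 0.233 and 0.375 over genes for 3 pairs of groups), but the labels do not say what a number marks. With the replicate number as a block the vehicle difference of Zfp36l1 was -0.039, and no count of the 8 genes changed. Over all genes the block gave 5 calls against 2 for GW4064 in Fxr+/+, 3 against 7 in Fxr-/- and 13 against 9 for the average.

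Counts over all genes lay between 0 and 6 for GW4064 in Fxr+/+ (main value 2), 0 and 361 in Fxr-/- (7), 0 and 303 for the difference of these effects (0), 2 and 346 for the average (9), 397 and 970 for the labels under vehicle (669) and 383 and 2006 under GW4064 (1427). Of 49 calls of list genes, 21 were kept whichever array was left out. The single Fxr-/- vehicle array could not be left out where its group was compared.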
